A study of Mus musculus with 2 samples.

Results

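Polycomb repressive complex 2 (PRC2) is the enzyme that methylates lysine 27 of histone H3, and its 9 genes in the table were Ezh1, Ezh2, Eed, Suz12, Jarid2, Aebp2, Mtf2, Phf1 and Phf19. They were found by their symbols, whatever their values, among the 16803 genes of the table. All 9 were in the 13442 genes with enough reads to be tested. The cells were NE4C, an established line of mouse neural stem cells that was derived from the brain vesicles of embryos lacking p53, so both groups carry that loss. The control was the normal culture, and the other culture was treated with HTL, the thiolactone of homocysteine, a reactive ring form of that amino acid which can bind to lysines of proteins, histones included. Each condition is 1 sequenced library of 1 cell line, and the dose and time of the treatment behind the sequenced RNA are not given in the sources used here.

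PRC2 is built on a core of a catalytic subunit, Ezh2 or its paralog Ezh1, with the scaffold Suz12 and with Eed, which binds methylated lysine 27 and helps the mark to spread. Accessory subunits divide the complex into forms: Jarid2 and Aebp2 belong to the form called PRC2.2, and the Polycomb-like proteins Mtf2, Phf1 and Phf19 belong to PRC2.1. In neural stem cells the mark holds developmental regulators silent. Ezh2 is the catalytic subunit usually found in dividing cells, and Ezh1 is better known from cells that have left the cycle.

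After rounding, the control library held 10350646 reads and the HTL library 9102057. Reads were estimated counts, and FPKM are the authors' values scaled to transcript length and library size. Nothing here has a replicate check, and all intervals and tests cover the counting error of these 2 libraries only. A gene rose or fell here if the adjusted p of a two-sided exact binomial test on its reads was at most 0.001, and it was called if its absolute log2 ratio, HTL over control, was also at least 1. Of all genes tested, 7.98% were called lower and 2.81% called higher, and by the adjusted p alone 24.1% fell and 14.5% rose. The median log2 ratio over all genes tested was -0.14. Neural stem cell markers were present: Nes was at 25.1 FPKM in control and 24.1 after HTL, and Sox2 at 34.7 and 12.6. Of the 8 markers of that list 3 were called lower (Sox1, Sox2 and Vim) and Fabp7 had 2 reads in each library. Markers of fibroblasts and endothelium summed to 2.28 FPKM in control and 2.42 after HTL, with none called. Glial markers summed to 22.2 and 22.5 FPKM, most of it Slc1a3, which neural stem cells also express (18.2 and 18.1), with Mbp at 3.61 and 4.19 and with Gfap and Mog at 2 reads or fewer. Neuron markers summed to 21.97 and 28.7 FPKM, most of it Tubb3 (16.3 and 24.8). Of the 6 neuron markers, all tested, 4 had log2 ratios below 0, and the median was -0.67. Tubb3 rose (log2 ratio 0.60) and Dcx was called lower (-1.40). The part of these markers in the PRC2 values was not tested. In bulk RNA, fewer cells of a type and less RNA per cell cannot be told apart.

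The change among the PRC2 genes was uneven. Only Ezh1 among the 9 was called, and it was lower after HTL. By the adjusted p alone 5 genes fell (Ezh1, Suz12, Jarid2, Aebp2 and Mtf2), Ezh2 rose, and Eed, Phf1 and Phf19 did not pass, beside 24.1% of all genes that fell and 14.5% that rose. If a biological coefficient of variation of 0.1 between cultures is assumed, Ezh1 alone of the 9 passed in edgeR's exact test. The median log2 ratio of the 9 genes was -0.33. With 1 of 9 called lower, against the 7.98% of all genes tested, the count of calls is near the background.

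**Figure D1:**
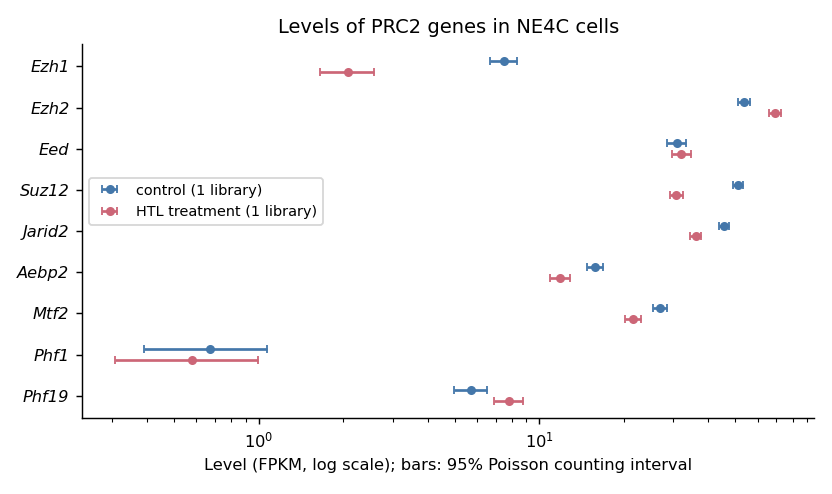
Level of each PRC2 gene (FPKM, log axis) in the control library (blue) and the HTL library (red), with bars for the 95% Poisson counting interval. Ezh1 stands at 7.48 and 2.08 FPKM with intervals far apart, Ezh2 is the highest gene in both libraries, and the intervals of Eed and of Phf1 overlap between the libraries.

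The catalytic pair had log2 ratios of opposite sign. Ezh1 (gene ID 14055) had 330 control reads and 81 HTL reads, or 7.48 and 2.08 FPKM. The HTL level was 28.0% of the control level, a log2 ratio of -1.84 (95% interval -2.21 to -1.49, adjusted p = 4.45e-29, exact binomial test). The call rests on counting error: if a biological coefficient of variation of 0.2 between cultures is assumed, the adjusted p of edgeR's exact test was 0.00379. Ezh2 (gene ID 14056), the main methyltransferase of PRC2, had 1485 and 1692 reads, or 53.7 and 69.4 FPKM. It rose by a log2 ratio of 0.37 (0.27 to 0.48, adjusted p = 2.13e-12), short of the cutoff of 1. At an assumed coefficient of 0.1 the adjusted p of Ezh2 was 0.187 in edgeR's exact test. Ezh2 was the highest of the 9 genes in both libraries, and Ezh1 was seventh in control and eighth after HTL.

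The balance within the pair does not depend on how the libraries are scaled to each other. Of the reads of both genes, Ezh1 took 18.2% in control and 4.57% after HTL. The ratio of Ezh1 to Ezh2 reads changed by -2.21 on the log2 scale (95% interval -2.60 to -1.84, adjusted p = 6.22e-39 over 5 ratios, two-sided Fisher's exact test). Per length, the Ezh2 level was 7.18-fold above that of Ezh1 in control and 33.4-fold above it after HTL. The longest run of bases that a transcript of Ezh1 and a transcript of Ezh2 hold in common was 17, and the estimated reads of both genes were whole numbers in both libraries. Ezh1 lies on the minus strand of NCBIM37 chromosome 11 from 101052429 to 101087777, and Ezh2 on the minus strand of chromosome 6 from 47480273 to 47545340. An exon of Gm17629 on the opposite strand overlaps exons of Ezh2 over 174 bases, and whether reads were counted by strand is not given in the sources used here.

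**Figure D2:**
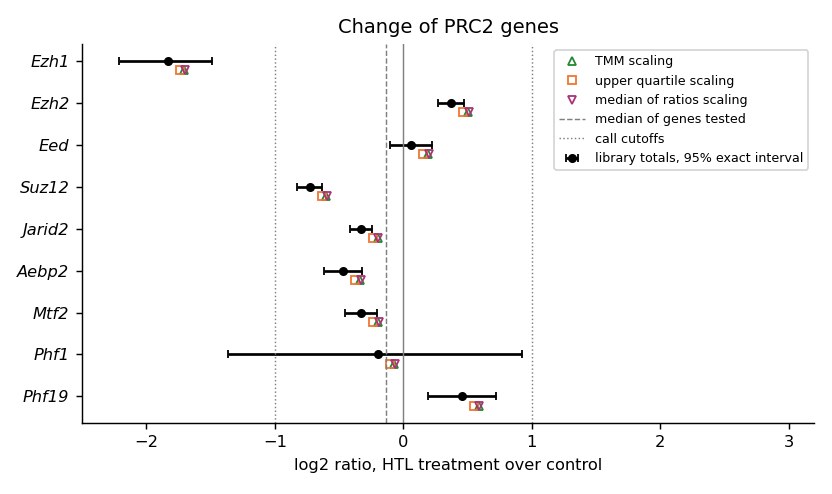
Log2 ratio, HTL over control, of each PRC2 gene, with library totals (black, bars for the 95% exact counting interval) and with TMM, upper quartile and median of ratios scaling (open marks). Dotted lines mark the cutoffs of a call and the dashed line the median of all genes tested. Ezh1 at -1.84 lies past the cutoff of -1, Suz12 at -0.73 is the next lowest, and Phf19 and Ezh2 lie above 0.

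The core partners Suz12 and Eed were unlike each other. Suz12 (gene ID 52615), the scaffold of the complex, had 2375 control reads and 1260 HTL reads, or 51.2 and 30.8 FPKM. It fell by 0.73 on the log2 scale (95% interval -0.83 to -0.63, adjusted p = 3.74e-48, exact binomial test), to 60.3% of the control level. The fall has many reads behind it and is still short of a call. Eed (gene ID 13626) had 657 and 603 reads, or 30.8 and 32.1 FPKM, with a log2 ratio of 0.062 (-0.10 to 0.22, adjusted p = 0.558). The interval of Eed thus leaves out changes of the size measured for Suz12. Suz12 lies on the plus strand of chromosome 11 from 79806608 to 79847625, with 178 bases of its exons overlapped on the opposite strand by Gm16706. Eed lies on the minus strand of chromosome 7 from 97103166 to 97129493.

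Ratios among Ezh2, Suz12 and Eed were picked for description after the values were seen. The FPKM of Suz12 was 0.953 times that of Ezh2 in control and 0.444 times after HTL. The log2 change of that ratio in reads was -1.10 (95% interval -1.25 to -0.96). Against Eed, the FPKM of Suz12 stood at 1.66 in control and 0.959 after HTL, a log2 change of -0.79 in reads. The ratio of Eed to Ezh2 reads changed by -0.31 on the log2 scale.

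The promoters of the catalytic pair, of Suz12 and of Phf19 are shown because the catalytic balance, the fall of the scaffold and the Polycomb-like composition turn on these genes, and because 3 of them hold a match to an E2F motif. E2F factors drive genes of the cell cycle, Ezh2 included. The sequences are RefSeq windows from 250 bases before to 50 after a gene's start, of the GRCm38.p6 table, each found once and without a difference in NCBIM37, whose coordinates are given. TTTCCCGC and TTTGGCGC were searched on both strands. Of all 32851 windows, 1.07% hold TTTCCCGC, 0.514% hold TTTGGCGC and 1.56% hold either. All 9 members matched the table, with 13 windows, and 3 members (Ezh2, Suz12 and Phf19) held a match. Each is printed 5′ to 3′ on the gene's strand, with the match in capitals. They cover chr11:101087728-101088027 for Ezh1 (minus strand), chr6:47544980-47545279 for Ezh2 (minus), chr11:79806358-79806657 for Suz12 (plus) and chr2:34769447-34769746 for Phf19 (minus).
Ezh1 promoter: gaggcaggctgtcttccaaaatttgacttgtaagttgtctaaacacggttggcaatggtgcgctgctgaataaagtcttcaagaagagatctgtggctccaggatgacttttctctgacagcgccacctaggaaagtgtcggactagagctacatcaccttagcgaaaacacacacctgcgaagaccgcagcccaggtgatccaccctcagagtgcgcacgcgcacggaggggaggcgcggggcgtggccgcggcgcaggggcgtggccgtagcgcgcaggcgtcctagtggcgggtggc
Ezh2 promoter: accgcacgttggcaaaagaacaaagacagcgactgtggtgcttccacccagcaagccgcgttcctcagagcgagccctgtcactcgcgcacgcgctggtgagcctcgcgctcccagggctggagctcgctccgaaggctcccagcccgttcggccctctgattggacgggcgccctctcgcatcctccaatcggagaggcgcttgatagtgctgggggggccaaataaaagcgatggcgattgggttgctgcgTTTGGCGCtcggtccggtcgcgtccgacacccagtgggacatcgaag
Suz12 promoter: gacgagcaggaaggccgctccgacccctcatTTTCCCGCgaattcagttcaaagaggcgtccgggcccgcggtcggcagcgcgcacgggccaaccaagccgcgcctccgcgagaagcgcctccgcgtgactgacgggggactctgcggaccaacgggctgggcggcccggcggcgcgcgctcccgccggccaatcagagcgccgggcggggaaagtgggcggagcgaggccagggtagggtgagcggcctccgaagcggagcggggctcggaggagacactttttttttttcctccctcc
Phf19 promoter: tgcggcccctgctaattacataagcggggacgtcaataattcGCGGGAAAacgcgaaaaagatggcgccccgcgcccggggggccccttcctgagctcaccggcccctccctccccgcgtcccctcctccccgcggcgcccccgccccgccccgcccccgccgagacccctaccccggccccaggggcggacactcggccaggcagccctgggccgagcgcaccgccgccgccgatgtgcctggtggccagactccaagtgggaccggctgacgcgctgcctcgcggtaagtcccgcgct

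The match begins at base 254 of the Ezh2 window, just after the RefSeq start on which the window is set, and at base 32 of the Suz12 window. The span of Ezh2 given above is from another annotation and reaches 47545340, so the whole window lies inside that span. In the Phf19 window it begins at base 43 and is the reverse complement of TTTCCCGC. The Ezh1 window holds neither motif. Of the 3 genes with a match, Ezh2 had a log2 ratio of 0.37, Phf19 of 0.46 and Suz12 of -0.73, so the matches did not go with 1 direction. A match is a description of the letters and not of a bound site.

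Both subunits of PRC2.2 fell by a modest amount. Jarid2 (gene ID 16468), which helps to recruit the complex to chromatin, had 2785 control reads and 1947 HTL reads, or 45.5 and 36.1 FPKM. Its log2 ratio was -0.33 (95% interval -0.42 to -0.25, adjusted p = 4.44e-14, exact binomial test). Aebp2 (gene ID 11569), a zinc finger partner of Jarid2, had 964 and 613 reads, or 15.8 and 11.9 FPKM. Its log2 ratio was -0.47 (-0.62 to -0.32, adjusted p = 1.34e-09). The ratio of Jarid2 to Aebp2 reads, described after the values were seen, changed by 0.14 on the log2 scale with an interval from -0.034 to 0.31 that includes 0. Jarid2 spans 44824843 to 45017012 on the plus strand of chromosome 13, and Aebp2 spans 140570970 to 140626993 on the plus strand of chromosome 6.

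The Polycomb-like genes, whose proteins bind DNA and take the same place in PRC2.1, were unequal in level and in change. Mtf2 (gene ID 17765), the most abundant of them, had 1257 control reads and 881 HTL reads, or 26.98 and 21.53 FPKM. It fell by 0.33 on the log2 scale (95% interval -0.45 to -0.20, adjusted p = 8.45e-07, exact binomial test), and its adjusted p missed the cutoff with TMM scaling (0.00429) and with the median of ratios (0.00595). Phf19 (gene ID 74016) had 222 and 268 reads, or 5.69 and 7.79 FPKM. Its log2 ratio was 0.46 (0.20 to 0.72), and its adjusted p of 0.00123 just missed the cutoff. With TMM scaling its adjusted p was 2.60e-05, and with the upper quartile 8.75e-05. Phf1 (gene ID 21652) was nearly silent, with 17 and 13 reads, or 0.67 and 0.58 FPKM. Its log2 ratio of -0.20 had an interval from -1.36 to 0.93, so a change of up to those sizes was not detectable at this depth.

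Between these 2 libraries the composition of the Polycomb-like group moved from Mtf2 towards Phf19. Neither gene passed on its own at an assumed coefficient of 0.1 (adjusted p = 0.267 for Mtf2 and 0.166 for Phf19, edgeR's exact test). The ratios were not tested with assumed variation. Of the summed FPKM of the 3 genes, Mtf2 held 80.9% in control and 72.0% after HTL, Phf19 17.1% and 26.1%, and Phf1 2.01% and 1.94%. The ratio of Phf19 to Mtf2 reads was 0.177 in control and 0.304 after HTL, a log2 change of 0.78 (95% interval 0.49 to 1.08, adjusted p = 1.98e-07, two-sided Fisher's exact test). The ratio of Phf1 to Mtf2 reads changed by 0.13 (-1.05 to 1.26, adjusted p = 0.853), and that of Phf1 to Phf19 by -0.66 (-1.85 to 0.51, adjusted p = 0.325). These wide intervals follow the few reads of Phf1. Mtf2 shares 395 bases of exon with Tmed5 on the opposite strand. Tmed5 had 444 and 285 reads, a log2 ratio of -0.45 near that of Mtf2, and the part of shared reads in the Mtf2 value was not tested. Mtf2 lies on the plus strand of chromosome 5 from 108494693 to 108538023, Phf1 on the plus strand of chromosome 17 from 27070072 to 27074835, and Phf19 on the minus strand of chromosome 2 from 34749277 to 34769546.

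The PRC2.2 genes had 2.506 reads for each read of the 3 Polycomb-like genes in control and 2.203 after HTL. The log2 change of that ratio was -0.19 (95% interval -0.32 to -0.052, adjusted p = 0.0101 over the 5 ratios, two-sided Fisher's exact test). This change was small beside that within the catalytic pair, where the ratio fell to 0.216 of its control value.

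**Figure D3:**
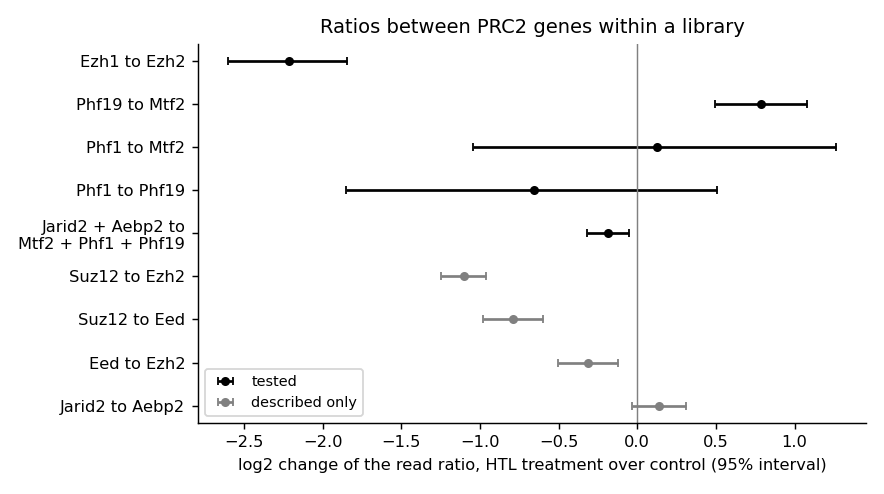
Log2 change, HTL minus control, of read ratios within PRC2, the 5 tested ones in black and the 4 described only in grey, with bars for the 95% exact interval. Ezh1 to Ezh2 lies at -2.21, Phf19 to Mtf2 at 0.78, and both ratios of Phf1 have intervals that include 0.

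In the order of levels per length, the control library ran Ezh2, Suz12, Jarid2, Eed, Mtf2, Aebp2, Ezh1, Phf19 and Phf1. Only Ezh2 and Suz12 had counting intervals that overlapped as neighbours in that order. In the HTL library the order was Ezh2, Jarid2, Eed, Suz12, Mtf2, Aebp2, Phf19, Ezh1 and Phf1. There the intervals of Jarid2 and Eed overlapped, and so did those of Eed and Suz12. Suz12 thus went from the second place to the fourth, and Ezh1 and Phf19 changed places.

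Longer transcripts had lower log2 ratios in this pair of libraries, so the members were also set beside genes of like length. In 10 bins of transcript length, the median log2 ratio went from 0.14 in the shortest bin to -0.38 in the longest. Ezh1, Suz12 and Mtf2 fall in a bin with a median of -0.20, of which 9.45% was called lower. Less that median, the log2 ratio was -1.63 for Ezh1, -0.53 for Suz12 and -0.13 for Mtf2. Less the medians of their own bins, it was -0.051 for Jarid2, -0.19 for Aebp2, 0.50 for Ezh2 and 0.62 for Phf19. The part of transcript length in these values was not tested.

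**Figure D4:**
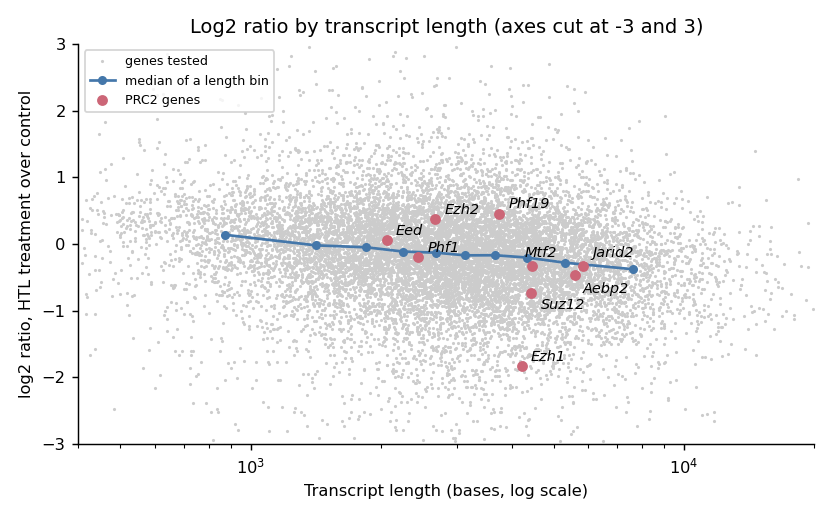
Log2 ratio, HTL over control, against transcript length (bases, log axis) for the genes tested (grey; 162 of 13442 lie outside the axes), with the medians of 10 length bins and the PRC2 genes marked. The bin medians decline with length, Ezh1 lies far below them, and Jarid2 and Mtf2 lie close to them.

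The other partners of PRC2 also moved in different directions and none was called. Rbbp4 and Rbbp7 are closely related histone-binding proteins that join the core of PRC2 and of other chromatin complexes. Rbbp4 rose from 3223 to 3526 reads, a log2 ratio of 0.32, with part of its reads estimated as fractions. Rbbp7 fell from 2213 to 1278 reads, a log2 ratio of -0.61. Epop, a partner of PRC2.1 listed under an older symbol, fell from 1397 to 708 reads, a log2 ratio of -0.79. None of Rbbp4, Rbbp7 and Epop passed at an assumed coefficient of 0.1 (adjusted p = 0.269, 0.02 and 0.00202, edgeR's exact test). Of the 5 partners tested the median log2 ratio was 0.062, and Lcor and Lcorl did not pass.

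Canonical PRC1 reads the mark that PRC2 lays and holds chromatin compact. The list is not reported whole, so its counts are not those of all PRC1 genes. Of the 12 genes reported, all tested, 1 rose (Rnf2, a ubiquitin ligase, with a log2 ratio of 0.64) and 7 fell by the adjusted p, beside 14.5% and 24.1% of all genes. Of these 4 were called lower, beside 7.98% of all genes, and the median log2 ratio of the 12 was -0.63. Cbx6 and Cbx7, chromodomain proteins of the family that binds methylated lysine 27, were called lower, Cbx6 from 634 to 197 reads (log2 ratio -1.50) and Cbx7 from 937 to 348 reads (-1.24). Per length, Cbx7 went from 31.1 to 13.1 FPKM and Cbx6 from 11.1 to 3.91. Ring1, the paralog of Rnf2, had 66 and 23 reads (-1.32), and Bmi1 had 90 and 34 reads (-1.21). At an assumed coefficient of 0.1 neither Ring1 nor Bmi1 was called (adjusted p = 0.00661 and 0.00458, edgeR's exact test), and with FPKM + 1 the calls of the list were 2. Cbx2 (-0.82), Pcgf2 (-0.71) and Phc1 (-0.55) fell without being called. They did not pass at the coefficient of 0.1 (adjusted p = 0.00189, 0.00654 and 0.0359, edgeR's exact test), nor did Rnf2 (0.017).

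The enzymes that oppose PRC2 had log2 ratios below 0. The list holds the demethylases of lysine 27 (Kdm6a and Kdm6b) and the methyltransferases of the trithorax group (Kmt2a, Kmt2b, Kmt2c and Kmt2d), which mark active genes and enhancers. With library totals all 6 passed the adjusted p, beside 24.1% of all genes that fell by it, and 2 were called lower, beside 7.98% of all genes. With TMM the demethylases did not pass (adjusted p = 0.00251 for Kdm6a and 0.0213 for Kdm6b, exact binomial test), nor with the median of ratios (0.00341 and 0.0313), and with the upper quartile Kdm6b did not (0.00129). Kmt2a, Kdm6a and Kdm6b did not pass at an assumed coefficient of 0.1 (adjusted p = 0.0307, 0.221 and 0.441, edgeR's exact test). Kmt2c had 1554 reads in control and 649 after HTL, a log2 ratio of -1.07. Kmt2b had 1590 and 691 reads, a log2 ratio of -1.02. Neither was called with another scaling, where TMM gave -0.94 and -0.89. Kmt2d was at -0.98, Kmt2a at -0.57, Kdm6a at -0.36 and Kdm6b at -0.23. All but Kdm6a lie in the longest bin of transcript length, where the median of all genes was -0.38 and 15.2% were called lower. Kdm6a lies in the next bin, with a median of -0.28 and 10.3% called lower.

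Genes known from other cells as targets of PRC2 showed no common direction, and binding of PRC2 was not measured here. Of 39 genes of the Hox clusters, 28 were in the table and 14 were tested. Hoxb9, a patterning gene of the trunk, was called higher, with 68 reads in control and 192 after HTL, a log2 ratio of 1.68, and none was called lower, beside 2.81% and 7.98% of all genes. A single call among 14 genes is near the background. The median log2 ratio of those tested was -0.19. Of the Hox genes in the table, 11 had at most 3 reads in both libraries. Hoxb13 had the most reads of them, with 314 and 330 reads, and its log2 ratio of 0.26 did not pass. Hoxd4 was at -0.095 and Hoxc4 at -0.081.

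Among 26 other classic targets, 17 were in the table and 10 were tested, with a median log2 ratio of -0.63. Gata4, a factor of heart and endoderm, was called higher, with 27 reads in control and 75 after HTL, a log2 ratio of 1.64. Eomes, a T-box factor, fell from 413 to 92 reads (-1.98), Lhx2, a forebrain factor, from 76 to 25 (-1.40), and the mesoderm factor T from 188 to 80 (-1.04). The list thus had 1 call higher and 3 lower, beside 2.81% and 7.98% of all genes. T was not called with another scaling, where TMM gave -0.91. At an assumed coefficient of 0.1 neither Lhx2 nor T was called (adjusted p = 0.00186 and 0.00181, edgeR's exact test), and with FPKM + 1 the list had 1 call, a lower one, so Gata4 was not called. Wt1 (-0.51), Cdkn2a (0.44) and Gata6 (0.45) did not pass.

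**Figure D5:**
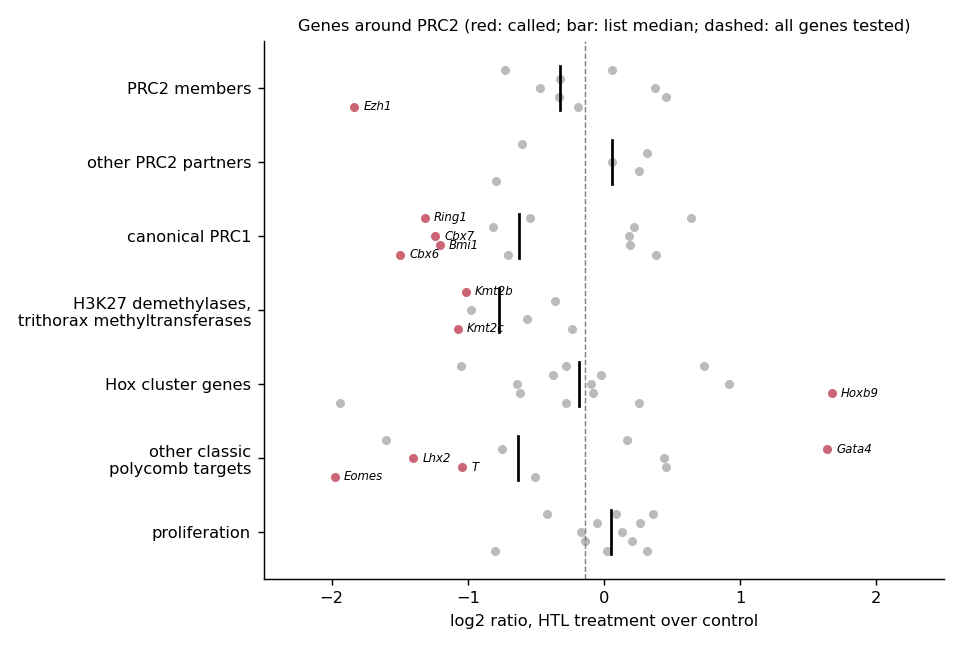
Log2 ratio, HTL over control, of each tested gene of the PRC2 list and of 6 related lists, with called genes in red and named, a bar for the median of each list and a dashed line for the median of all genes tested. The list medians run from -0.77 for the opposing enzymes to 0.062 for the other partners, and called genes lie on both sides in the other targets. Canonical PRC1 is shown for the 12 genes reported.

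Because Ezh2 is known to follow the cell cycle, 12 genes of proliferation were set beside them. None was called, and their median log2 ratio was 0.054. By the adjusted p alone 4 rose (Mcm3, Mcm4, Mcm5 and Mcm6, which unwind DNA in replication) and 3 fell (Mki67, Top2a and Mcm7), beside 14.5% and 24.1% of all genes, so the count that fell is near the background. Mcm3, Mcm4, Mki67 and Top2a did not pass at an assumed coefficient of 0.1 (adjusted p = 0.26, 0.204, 0.00112 and 0.118, edgeR's exact test). The log2 ratio of Mcm7 was -0.17, little beyond the 0.13 by which TMM scaling raises all ratios. Mcm3 had a log2 ratio of 0.32, near the 0.37 of Ezh2, while Mki67 was at -0.80 and Top2a at -0.42. Mki67 lies in the longest bin of transcript length (median -0.38), Top2a in the next (-0.28) and Mcm3 in a bin with a median of -0.13. The part of length in this contrast was not tested. Whether cell cycle phase had a part in the PRC2 values was not tested.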

How the data were processed

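RNA of 1 control and 1 HTL-treated NE4C culture was sequenced with BGISEQ protocols, and the titles gave the groups. The authors deposited estimated counts (RSEM, not normalized) and FPKM per gene. The submitters' notes name mm9, and the mapper, annotation release and use of strand are not given in the sources used here. The authors' deposited log2 ratio, p-value and FDR columns hold their own comparison and were not used.

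Estimated counts were rounded (21.8% of control and 20.2% of HTL values were fractional). Besides Rbbp4, the named genes Cbx6, Phc1, Kmt2d, Kdm6a, Hoxb9, Eomes, Mcm5, Tubb3, Dcx and Mbp had a fractional value in at least 1 library. Genes whose reads in the 2 libraries summed to 10 or more entered a two-sided exact conditional binomial test against library totals, with Benjamini-Hochberg adjustment over 13442 genes. The study's cutoffs (adjusted p 0.001, absolute log2 ratio 1) set the calls, with 0.5 read added for log2 ratios. Intervals are 95% Clopper-Pearson or Poisson. The libraries had no molecular identifiers, reads are therefore not independent molecules, and these cover counting error only. A count of 0 allows up to 3 reads, or 0.29 CPM in control and 0.33 in HTL. Read ratios within PRC2 were tested with Fisher's exact test, adjusted over 5 ratios.

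Without replicates neither DESeq2 nor the quasi-likelihood test of edgeR could be fitted. Alternatives used edgeR 4.0.16 and DESeq2 1.42.0 for scaling, and edgeR's exact test with assumed biological variation. Python 3.11.15, scipy 1.17.1 and R 4.3.3 were used. The tests were tried on simulated counts with Poisson error and no variation between cultures, so that trial does not bear on such variation. All 9 PRC2 genes are named. From each related list the text names at most 4 called genes with the largest change, up to 3 others with the most reads, and a few named after their values were seen. A gene of the canonical PRC1 list is not reported here, and the counts and median of that list leave it out. Members and lists were chosen with earlier results of these data known. Gene spans are from GENCODE vM1 on NCBIM37, the assembly also called mm9.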

Additional observations from a re-analysis of the deposited data

How the results depend on the processing

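No paired analysis was possible because there was a single library of each kind, and none could be left out. All 9 PRC2 genes kept their direction under TMM, upper quartile and median of ratios scaling, with 5 reads added and with FPKM + 1. The other settings changed the filter, the cutoff or the assumed variation and reused the log2 ratios, so they could not change a direction. The 5 ratios do not depend on scaling, and their only alternative, ratios of FPKM, kept the direction. The count of genes called was 1450. It was 816 with FPKM + 1, 5193 with the adjusted p alone, 287 at a log2 cutoff of 2, and 120 and 6 in edgeR's exact test at assumed coefficients of biological variation of 0.2 and 0.4. Lower genes made up 73.9% of calls, and 59.1% with TMM (553 higher, 798 lower), 63.3% with the upper quartile (498, 860) and 58.5% with the median of ratios (559, 788), which raised log2 ratios by 0.13, 0.093 and 0.14.

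Ezh1 stayed called under the scalings and filters, with log2 ratios from -1.84 to -1.46 (FPKM + 1). It was not called at a cutoff of 2 (-1.84), nor at an assumed coefficient of 0.2 (adjusted p = 0.00379, edgeR's exact test) or 0.4 (adjusted p = 1). The count of PRC2 genes called was 1; it was 6 with the adjusted p alone, and 0 at the cutoff of 2, at a coefficient of 0.2 and at 0.4. The count past the adjusted p was 6 (1 rose, 5 fell), 6 with TMM (2, 4), 7 with the upper quartile (2, 5), and 1 at a coefficient of 0.1, 0 at 0.2 and 0 at 0.4. At 0.1 the adjusted p was 5.45e-10 for Ezh1 and 0.00412 for Suz12. Of the 6 related lists, with 5, 12, 6, 14, 10 and 12 genes tested, 11 genes were called. Of all genes tested, 7.98% were called lower and 2.81% higher. The count for the lists was 8 under each scaling, 4 with FPKM + 1 and 7 at a coefficient of 0.1. It was 0 at 0.2, at 0.4 and at the cutoff of 2. With the adjusted p alone it was 29, where 24.1% of all genes fell and 14.5% rose. A variation between cultures cannot be measured in these libraries, and depth limits Phf1, which a mean of at least 50 reads leaves untested.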
